A study of Mus musculus with 12 samples.

Results

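The mitochondrial ribosomal protein genes were taken as all genes of the deposited expression table whose symbol begins with Mrpl or Mrps and a digit, without pseudogenes, which gave 77 of 47643 genes. Of these, 48 are named for the large subunit (Mrpl) and 29 for the small subunit (Mrps). The table lists Mrpl57 and Mrpl58 under older symbols, and they were counted under their current RefSeq symbols. One member, Mrpl53, was listed at 0 TPM in 9 of the 12 libraries, and the other 76 passed the filter on low values (a mean of at least 1 TPM over the 12 libraries) and were tested.

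The levels come from RNA-seq of common lymphoid progenitors (CLPs), bone marrow cells that give rise to lymphocytes, sorted from age-matched adult male mice with 1 poly(A)+ library per mouse and 4 libraries in each of 3 groups. WT mice carried an intact Firre locus on the X chromosome, which makes a long non-coding RNA. ∆Firre mice (KO in the labels) carried a germline deletion, derived with CMV-Cre, that takes out the gene body and the promoter. Firre rescue mice carried the same deletion plus a Firre cDNA transgene under a tetracycline-responsive element and a CAG-driven rtTA3 activator, and were fed doxycycline, so that their Firre RNA comes from the transgene alone. The comparison of ∆Firre with WT asks what loss of the locus does, and that of Firre rescue with ∆Firre what Firre RNA supplied from elsewhere in the genome does. Only the Firre rescue mice carried the transgenes and received doxycycline, so the RNA, the diet and the activator cannot be told apart here.

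Mitochondrial ribosomes translate the few proteins that mitochondrial DNA encodes, all of them parts of the respiratory chain or ATP synthase. Their rRNAs are made from mitochondrial DNA, whereas all their proteins are encoded in the nucleus, made in the cytosol and imported. Some of these proteins descend from bacterial ribosomal proteins and others were added during the evolution of mitochondria.

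The members lie on 17 chromosomes, with 11 of them on chromosome 11 and none on X or Y, so that none is a neighbor of Firre. RefSeq start sites were found for 68 members, and 26 of these (38.2%) had the start site of another gene on the opposite strand within 1000 bases upstream, against 12.2% of the 27025 genes with a start site in the same table. Mrpl46 and Mrps11, of opposite subunits, lie head to head in this way, with 41 bases between them. Of the 14 members that rose in Firre rescue (below) and have a start site, the promoters of some are shown here as examples, not ranked by size of change. They are the 120 bases before the start site (RefSeq, GRCm38.p6, read 5′ to 3′ on the strand of the gene) of Mrpl34 at chr8:71464806-71464925 (plus strand), Mrpl28 at chr17:26123383-26123502 (plus strand), Mrpl12 at chr11:120484517-120484636 (plus strand), Mrps21 at chr3:95871515-95871634 (minus strand) and Mrpl51 at chr6:125192080-125192199 (plus strand), followed by the stretch between Mrpl46 and Mrps11 at chr7:78783090-78783130 (plus strand). Capitals mark letters of any motif searched.
Mrpl34: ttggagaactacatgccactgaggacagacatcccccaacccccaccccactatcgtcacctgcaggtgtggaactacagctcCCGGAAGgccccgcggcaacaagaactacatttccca
Mrpl28: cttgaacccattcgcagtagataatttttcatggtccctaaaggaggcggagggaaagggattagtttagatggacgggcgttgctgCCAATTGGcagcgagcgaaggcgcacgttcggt
Mrpl12: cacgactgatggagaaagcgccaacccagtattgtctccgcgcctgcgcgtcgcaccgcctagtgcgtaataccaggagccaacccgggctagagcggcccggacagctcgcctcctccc
Mrps21: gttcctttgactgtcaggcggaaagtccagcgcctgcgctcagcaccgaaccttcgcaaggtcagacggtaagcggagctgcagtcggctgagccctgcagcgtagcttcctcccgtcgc
Mrpl51: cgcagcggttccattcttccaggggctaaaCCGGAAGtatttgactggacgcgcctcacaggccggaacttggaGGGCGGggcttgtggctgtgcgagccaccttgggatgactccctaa
Mrpl46-Mrps11: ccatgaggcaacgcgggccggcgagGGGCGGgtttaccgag

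The motifs were searched on both strands in the 250 bases before and 50 after each start site. CCGGAAG, the letters that ETS factors such as GABP bind, was found in 25 of 68 members (36.8%) and in 9.93% of all genes with a start site. AAGATGGC, bound by YY1, was in 12 members (17.6%) and 3.19% of all genes, and GCATGCGC, the core of the NRF1 motif, in 7 members (10.3%) and 3.05% of all genes. GGGCGG, the GC box, was in 34 members and 38.2% of all genes, CCAAT in 26 members and 41.1% of all genes, and CACGTG in 5 members and 8.09% of all genes. In the sequences shown, Mrpl34 and Mrpl51 hold CCGGAAG, Mrpl28 holds CCAAT on both strands in overlapping letters, and Mrpl12 and Mrps21 hold none of the 6. In the longer stretch that was searched, Mrps21 holds CCGGAAG. Of 14 members called higher in Firre rescue (below) that have a start site in the table, 6 hold CCGGAAG, against 19 of the 54 other members.

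Before the comparisons, the libraries were checked. Firre was between 25.2 and 31.6 TPM in WT, was listed at 0 TPM in all 4 ∆Firre libraries and lay between 59.9 and 174 TPM in Firre rescue. Markers of the sorted cell (Il7r, Flt3, Kit, Ly6a, Rag1, Dntt, Ly6d and Cd27) all averaged above 10 TPM in each group. They summed to 6298 to 8891 TPM in WT, 7375 to 7706 TPM in ∆Firre and 8893 to 9750.2 TPM in Firre rescue libraries, where 2 were called higher and 1 lower than in ∆Firre, and their part in the results below was not tested. Reads recovered from the spacing of the TPM values numbered 10991213 to 18175169 in WT, 14372192 to 17598844 in ∆Firre and 25782584 to 32573159 in Firre rescue libraries, so that the last were more deeply sequenced. The Firre rescue libraries also have a range of library numbers of their own, and library number and group cannot be told apart for them. No tested member had fewer than 121 reads in any library, and the median over members in the smallest library was 361 reads. Values are given below in the order of replicates 6, 8, 10 and 11 for WT, 8, 9, 11 and 12 for ∆Firre, and 1 to 4 for Firre rescue.

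In WT CLPs the 76 tested members spanned a 21.8-fold range of TPM, which is corrected for gene length (a mean per member of 11.4 to 249 TPM). Mrpl53, which was not tested, was at 0.266, 0, 0 and 0.275 TPM. It overlaps Ccdc142 in the RefSeq table, and how reads on shared bases were counted is not given, so its level is uncertain. The median tested member stood at 49.0 TPM, against 21.4 TPM for the median gene tested and 1192 TPM for the median of the 78 cytosolic ribosomal protein genes. Members named for the large subunit had a median of 53.7 TPM and those named for the small subunit of 43.6 TPM. The plot of WT levels shows this order.

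**Figure D1:**
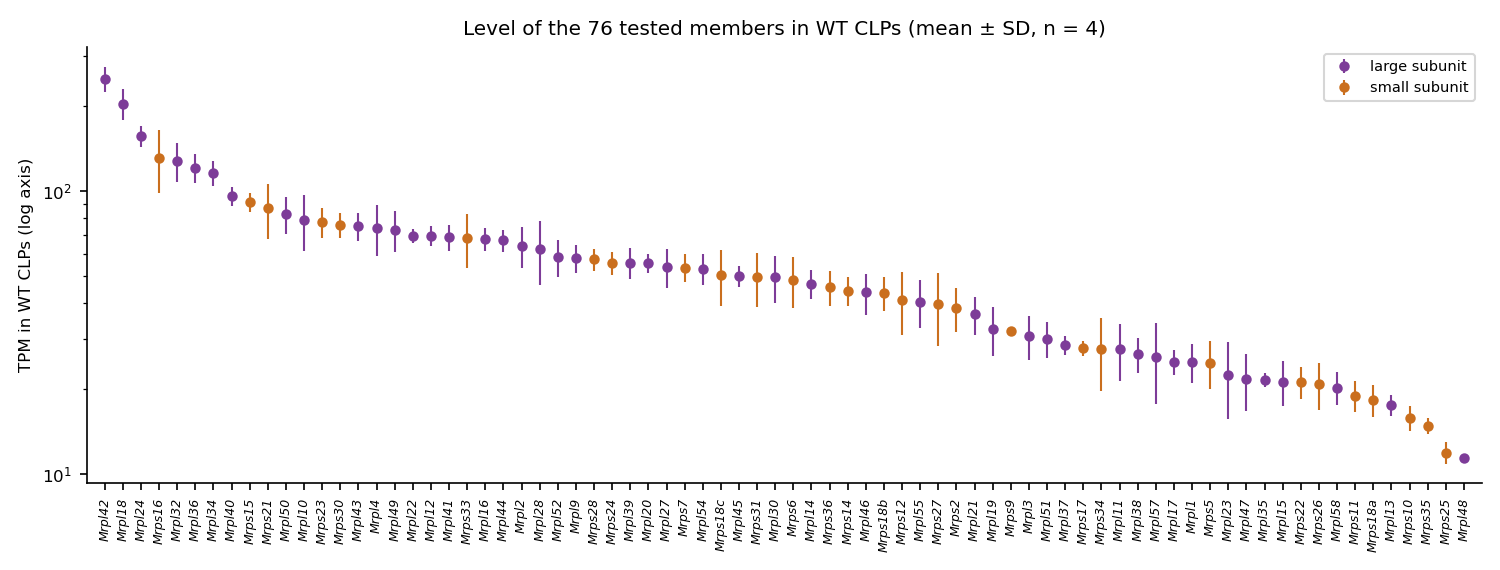
Level of each of the 76 tested members in WT CLPs, in TPM on a log axis, as the mean and SD over 4 libraries. Members run from the highest to the lowest and are colored by the subunit they are named for. Mrpl42 leads at 249 TPM, Mrpl48 closes at 11.4 TPM, and members named for either subunit are found along the whole range.

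The most abundant member was Mrpl42, a protein found only in mitochondrial ribosomes, with a mean of 249 ± 25.8 TPM (SD, n = 4) in WT CLPs, 242 ± 33.4 in those of ∆Firre mice and 269 ± 32.1 under Firre rescue. Mrpl18, of the 5S rRNA-binding family, followed at 203 ± 25.5, 194 ± 24.1 and 204 ± 34.1 TPM. Mrpl24, at 156 ± 13.7 TPM in WT, and Mrps16, at 131 ± 32.9 TPM in WT, came next. Their WT libraries overlapped from each gene to the next in this order, except between Mrpl18 (181 to 239 TPM) and Mrpl24 (139 to 168 TPM). At the low end stood Mrpl48 (11.4 ± 0.363 TPM), Mrps25 (11.9 ± 1.02), Mrps35 (14.8 ± 0.978) and Mrps10 (15.7 ± 1.598), and only between Mrps25 (10.4 to 12.8 TPM) and Mrps35 (13.4 to 15.8 TPM) did neighbors in this order not overlap. Within groups the members were tighter than genes at large: the median SD of log2(TPM + 1) was 0.18 for WT, 0.17 for ∆Firre and 0.25 for Firre rescue libraries, against 0.25, 0.21 and 0.34 over all genes tested. The median member also stood at a higher level than the median gene tested (above), and genes of matched level were not compared.

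Between Firre rescue and ∆Firre CLPs, 18 of the 76 members were higher and 0 lower at an adjusted p of 0.1 or less (limma on log2(TPM + 1), two-sided, Benjamini-Hochberg over all 14479 genes tested). The same rule called 8.58% of all genes higher and 19.3% lower. The median difference over the members was 0.17 on the log2 scale, and over all genes −0.16. Members named for the large subunit made up 13 of the 18 (of 47 tested) and those named for the small subunit 5 (of 29 tested), with median differences of 0.16 and 0.20. Members with a bacterial counterpart gave 13 of 46, and those specific to mitochondria 5 of 30. In 14 members, 13 of them among the 18, every Firre rescue library lay above every ∆Firre library, which held for 6.31% of all genes. The other was Mrpl30 (0.30, limma adjusted p = 0.139), named after its value was seen. The differences of the rest reached from −0.25 to 0.62, and 18 of the 76 members and 9267 of the 14479 genes were below 0. Rescaling TPM by the median ratio between libraries moved the median of all genes from −0.16 to −0.05 and the counts over all genes from 1242 higher and 2801 lower to 1901 higher and 1862 lower. It gave 25 members higher and 0 lower, with the member median at 0.29.

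**Figure D2:**
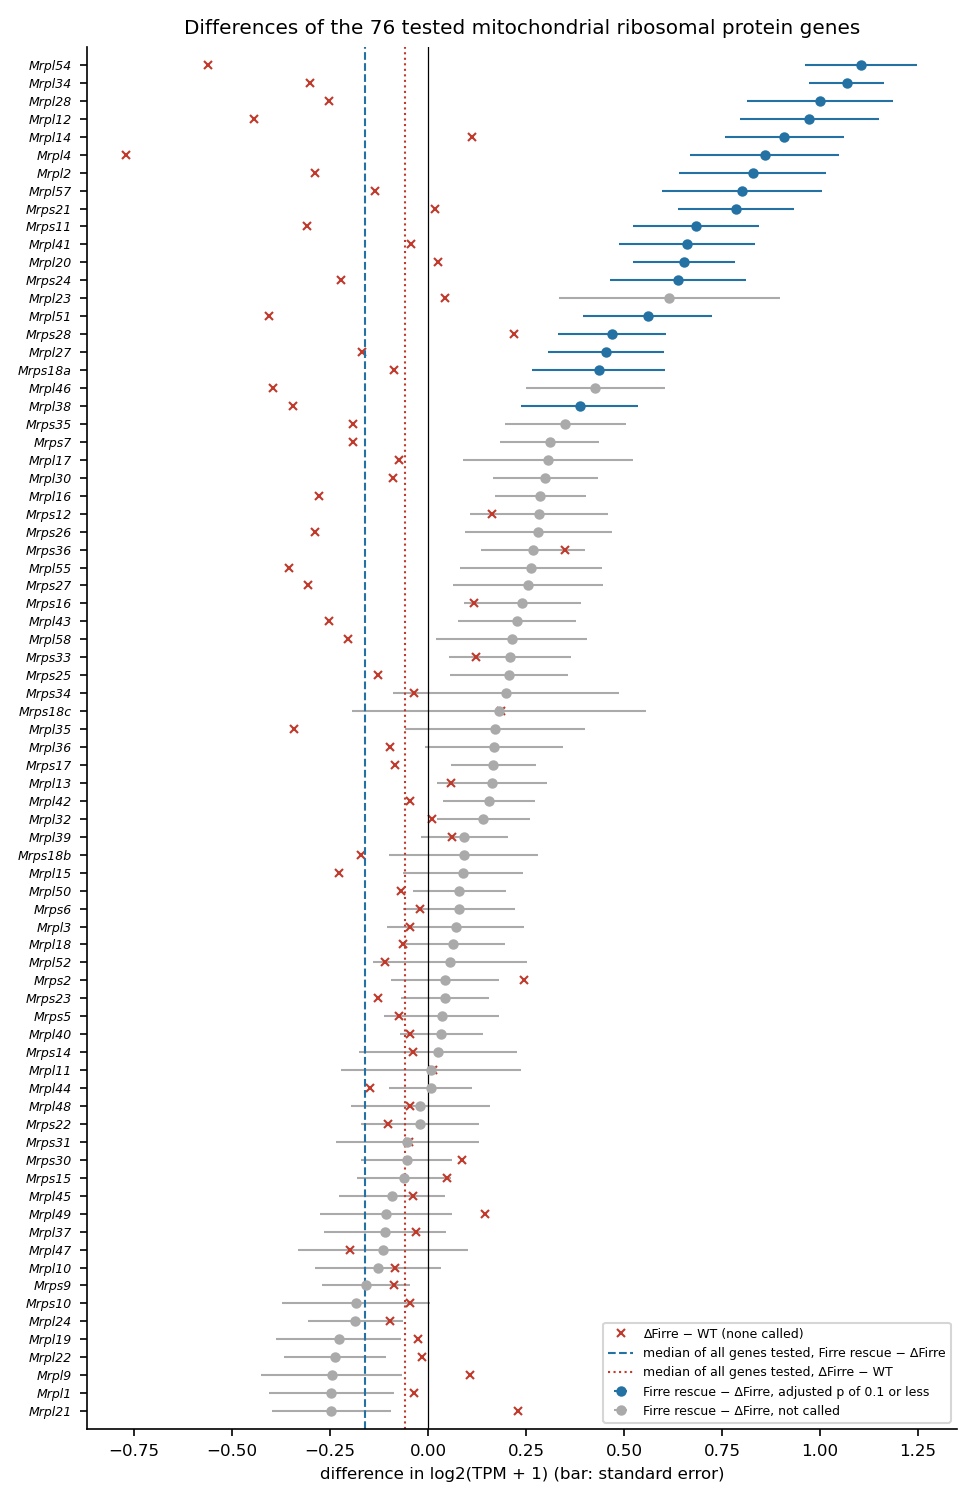
Difference in log2(TPM + 1) of each of the 76 tested members between Firre rescue and ∆Firre CLPs (circles with standard errors, blue where the adjusted p is 0.1 or less) and between ∆Firre and WT (red crosses), with the median of all genes tested as dashed and dotted lines. All 18 called members lie to the right of 0, and the comparisons share the ∆Firre libraries.

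One of the largest rises was that of Mrpl54, a large subunit protein with no bacterial counterpart (ENSMUSG00000034932, chr10:81264722-81266926 in GRCm38). It stood at 61.2, 44.8, 52.8 and 53.2 TPM in WT, at 35.6, 33.9, 42.3 and 30.7 TPM in ∆Firre, and at 67.6, 66.4, 95.9 and 82.6 TPM in Firre rescue. The 3 groups did not overlap, with ∆Firre lowest and Firre rescue highest. Firre rescue exceeded ∆Firre by 1.105 ± 0.144 (SE) on the log2 scale, with a limma adjusted p of 0.000477. After correction for exon GC content, which is 59.0% in this gene, the difference was 0.80, below those of Mrpl57 (1.19), Mrps21 (0.96), Mrpl12 (0.90), Mrpl51 (0.89) and Mrpl34 (0.84).

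Mrpl34, the counterpart of the small bacterial protein L34 (ENSMUSG00000034880, chr8:71464926-71465753), had the smallest p of all members. Its TPM were 124, 112, 102 and 126 in WT, 92.9, 85.8, 94.4 and 102 in ∆Firre, and 203, 182, 185 and 221 in Firre rescue. Here too the groups did not overlap, although the highest ∆Firre library and the lowest WT library nearly met. Firre rescue exceeded ∆Firre by 1.07 ± 0.10 (limma adjusted p = 6.03e-05), and WT by 0.77 ± 0.10 (limma adjusted p = 0.000486).

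Mrpl12 forms the flexible stalk that engages translation factors (ENSMUSG00000039640, chr11:120484637-120488754). It measured 68.9, 77.4, 67.2 and 64.3 TPM in WT, 50.6, 36.3, 54.8 and 65.5 TPM in ∆Firre, and 99.4, 85.5, 87.5 and 137 TPM in Firre rescue. All Firre rescue libraries were above all others, and 1 ∆Firre library lay within the WT range. Firre rescue exceeded ∆Firre by 0.97 ± 0.18 (limma adjusted p = 0.00356). Neither member that holds the stalk was called, and whether they differ from Mrpl12 was not tested. Mrpl10, the anchor of the stalk, differed by −0.13 (95% interval −0.48 to 0.22). Mrpl11, at its base, differed by 0.01 (−0.49 to 0.51), with 16.5 TPM in Firre rescue replicate 3 against 30.8 to 33.6 TPM in the other Firre rescue libraries.

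Mrpl2 and Mrpl4 rose. Mrpl2, which contacts the catalytic rRNA (ENSMUSG00000002767, chr17:46646172-46650132), was at 49.1, 46.4, 51.2 and 61.5 TPM in ∆Firre and at 82.0, 65.2, 123 and 112 TPM in Firre rescue, with WT between 52.2 and 77.3 TPM, a difference of 0.83 ± 0.19 from ∆Firre (limma adjusted p = 0.0106). Mrpl4, which lines the tunnel (ENSMUSG00000003299, chr9:21001252-21008839), was at 79.4, 88.1, 76.8 and 52.1 TPM in WT, 46.0, 36.1, 35.3 and 54.5 TPM in ∆Firre and 61.7, 71.6, 92.2 and 88.1 TPM in Firre rescue. Its Firre rescue values overlapped those of WT and lay above those of ∆Firre (0.86 ± 0.19, limma adjusted p = 0.00933). Correcting the libraries for exon GC content, which is 60.3% in Mrpl4 and the highest of all members, took away this call. Mrpl3 differed by 0.07 (−0.31 to 0.45), and the exit-region proteins Mrpl44 and Mrpl45 by 0.01 (−0.22 to 0.24) and −0.09 (−0.38 to 0.20).

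Mrpl28 and Mrpl14, large subunit proteins of bacterial descent, also rose. Mrpl28 (ENSMUSG00000024181, chr17:26123503-26126613) went from 48.6, 40.4, 62.9 and 54.2 TPM in ∆Firre to 96.4, 91.2, 102 and 125 TPM in Firre rescue, a difference whose 95% interval runs from 0.60 to 1.40 (limma adjusted p = 0.00373). Mrpl14, at the interface of the subunits (ENSMUSG00000023939, chr17:45685722-45698495), went from 55.8, 39.3, 49.0 and 61.0 TPM to 89.5, 90.7, 85.4 and 122 TPM, a difference of 0.91 ± 0.15 (limma adjusted p = 0.0021). WT libraries were between 43.4 and 76.8 TPM for Mrpl28 and between 41.9 and 54.3 TPM for Mrpl14, below every Firre rescue library. Mrpl20, which in bacteria binds rRNA early in assembly, rose by 0.65 ± 0.13, Mrpl41 by 0.66 ± 0.17, Mrpl57 by 0.80 ± 0.20, Mrpl51 by 0.56 ± 0.16, Mrpl27 by 0.45 ± 0.15 and Mrpl38 by 0.39 ± 0.15. The call of Mrpl27 was lost without ∆Firre replicate 9 or 11 or Firre rescue replicate 4 (limma adjusted p from 0.103 to 0.14). That of Mrpl38 was lost without ∆Firre replicate 8, 9 or 12, Firre rescue replicate 3 or 4, or WT replicate 10 or 11 (limma adjusted p from 0.105 to 0.188).

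Among members named for the small subunit, the calls were Mrps21, Mrps11, Mrps24, Mrps28 and Mrps18a. Mrps21 (ENSMUSG00000054312, chr3:95862634-95871514) was at 111, 73.5, 70.0 and 92.4 TPM in WT, 97.1, 83.2, 72.8 and 94.5 TPM in ∆Firre and 130.5, 159, 166 and 146 TPM in Firre rescue. WT and ∆Firre overlapped, and all Firre rescue libraries lay above both (0.79 ± 0.15 from ∆Firre, limma adjusted p = 0.00416). Mrps11, of the platform, differed by 0.68 ± 0.16, Mrps24 by 0.64 ± 0.17, and Mrps28 by 0.47 ± 0.14. The Firre rescue and ∆Firre libraries of Mrps24 and Mrps28 overlapped, and the GC correction ended the call of Mrps24 (0.42, limma adjusted p = 0.171). Mrpl46, which shares its upstream stretch with Mrps11, differed by 0.43 ± 0.18 and was not called (limma adjusted p = 0.11).

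Of the paralogs Mrps18a, Mrps18b and Mrps18c, only the first was called, and differences among them were not tested. Mrps18a, which structures place in the large subunit despite its name, was at 15.7, 16.2, 17.7 and 18.8 TPM in ∆Firre and 22.6, 17.1, 29.6 and 26.1 TPM in Firre rescue, and its call (0.44 ± 0.17, limma adjusted p = 0.0899) rested on overlapping groups. It was lost when any 1 of the 4 ∆Firre libraries, of Firre rescue replicates 1, 3 and 4, or of WT replicates 6 and 11 was left out (limma adjusted p from 0.11 to 0.189). Mrps18b differed by 0.09 (−0.32 to 0.50). Mrps18c was the most variable of them, with 81.4, 120.4, 25.4 and 67.4 TPM in Firre rescue, and a difference of 0.18 (−0.63 to 0.99). Mrps12, of the decoding center, differed by 0.28 (−0.10 to 0.66), Mrps34 by 0.20 (−0.43 to 0.82), Mrps27 by 0.26 (−0.16 to 0.67) and Mrps30 by −0.05 (−0.31 to 0.20). Mrpl58, a peptidyl-tRNA hydrolase built into the large subunit, differed by 0.21 (−0.20 to 0.63).

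**Figure D3:**
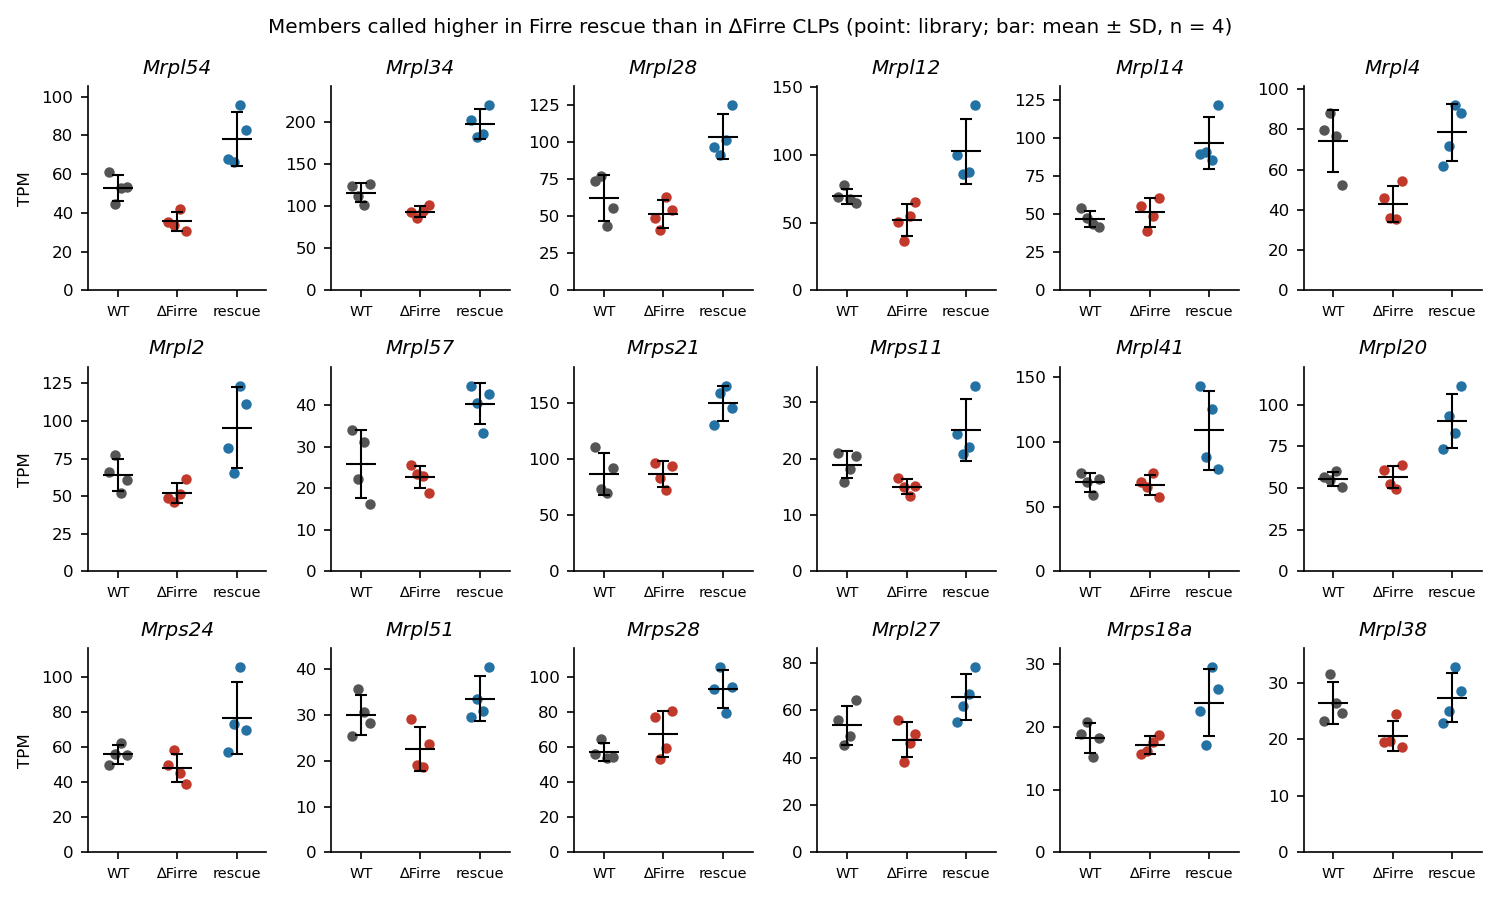
TPM of the 18 members called higher in Firre rescue than in ∆Firre CLPs, with 1 point per library and the mean and SD of each group of 4. In 13 of the 18 panels the Firre rescue points all lie above the ∆Firre points, and in Mrpl54 and Mrpl34 the ∆Firre points also lie below all WT points.

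Against WT, Firre rescue CLPs had 12 members higher and 0 lower, where 4.82% of all genes were called higher and 19.4% lower. The median difference was 0.04 over the members and −0.21 over all genes. Rescaling by the median ratio gave 23 members higher and 0 lower, a member median of 0.23, and 1306 genes higher and 1244 lower over all genes. Without Firre rescue replicate 3 the member median was 0.11, with 16 members higher and 1 (Mrpl24) lower. In the uncorrected fit the 6 largest were Mrpl14 (1.02 ± 0.15), Mrps21 (0.80 ± 0.15), Mrpl34 (0.77 ± 0.10), Mrpl28 (0.75 ± 0.19), Mrps28 (0.69 ± 0.14) and Mrpl20 (0.68 ± 0.13). Every Firre rescue library lay above every WT library in 10 members and in 3.55% of all genes. Every Firre rescue library lay below every WT library in 1 member (Mrpl22) and in 2094 of the 14479 genes tested. Mrps28 is the counterpart of bacterial S1 and stood at 56.1, 64.6, 53.6 and 54.7 TPM in WT and 93.1, 106, 79.3 and 94.2 TPM in Firre rescue, without overlap. Mrpl4, Mrpl51 and Mrpl38, called against ∆Firre, differed from WT by 0.09 (−0.32 to 0.50), 0.16 (−0.20 to 0.51) and 0.04 (−0.28 to 0.36). This comparison shares its Firre rescue libraries with the one above.

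Between ∆Firre and WT CLPs 0 members were called, and 3 genes of all those tested (0.0207%) were. At an unadjusted p under 0.05 limma gave 9 members, 8 of them lower in ∆Firre, and 5.30% of all genes (767, of which 596 were lower). The member median was −0.07 and that of all genes −0.06. With limma-voom on the recovered reads, 0 members passed the adjusted threshold and the unadjusted p of 2 was under 0.05. Leaving out single libraries moved the 9 members of the limma fit to between 4 and 10. The 4 came without WT replicate 8, and the 10 without WT replicate 6 or 11 or Firre rescue replicate 3. In 3 members (Mrpl54, Mrpl34 and Mrpl35) every ∆Firre library lay below every WT library, as it did in 4.49% of all genes. Mrpl54 differed by −0.56 ± 0.14 and Mrpl34 by −0.30 ± 0.10 (limma adjusted p = 0.889 for both). After correction for exon GC content they were −0.33 and −0.09 (limma adjusted p = 0.999 for both). Mrpl4 had the largest difference, −0.77 ± 0.19, with the same adjusted p and with overlapping libraries.

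In 1 member, Mrps36, every ∆Firre library lay above every WT library, as it did in 122 of the 14479 genes tested, and 20 of the 76 members and 5554 of the 14479 genes had a difference above 0. Rescaling by the median ratio put 36 members above 0, with a median of −0.007 over the members and 0.008 over all genes. Quantile normalization put 37 members above 0, with medians of −0.008 and −0.01. Mrps36, now assigned to the oxoglutarate dehydrogenase complex rather than the ribosome, was at 50.4, 36.2, 47.0 and 49.0 TPM in WT, 56.7, 54.4, 53.3 and 68.8 TPM in ∆Firre and 74.98, 78.4, 59.2 and 69.1 TPM in Firre rescue. ∆Firre exceeded WT by 0.35 ± 0.13 (limma adjusted p = 0.929), and all Firre rescue libraries were above all WT libraries as well (0.62 ± 0.13, limma adjusted p = 0.00897). The WT and ∆Firre libraries fall into 2 ranges of library numbers with 2 of each group, and within them Mrps36 differed by 0.38 and 0.32, Mrpl54 by −0.33 and −0.80, and Mrpl34 by −0.34 and −0.26. The member median within the ranges was −0.09 and −0.11, and that of all genes −0.06 in both.

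The order of the 3 group means was ∆Firre, WT, Firre rescue from low to high in 29 members (38.2%) and in 16.9% of all genes. It was Firre rescue, ∆Firre, WT in 13 members (17.1%) and in 33.5% of all genes. Summed over the 77 members, WT libraries held 4171 to 4349.7 TPM, ∆Firre libraries 3840.45 to 4219.5 TPM and Firre rescue libraries 4688 to 5159.7 TPM, the last above all others. TPM are shares of a library's transcripts, and in sorted cells fewer cells of a type and less RNA per cell cannot be told apart.

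**Figure D4:**
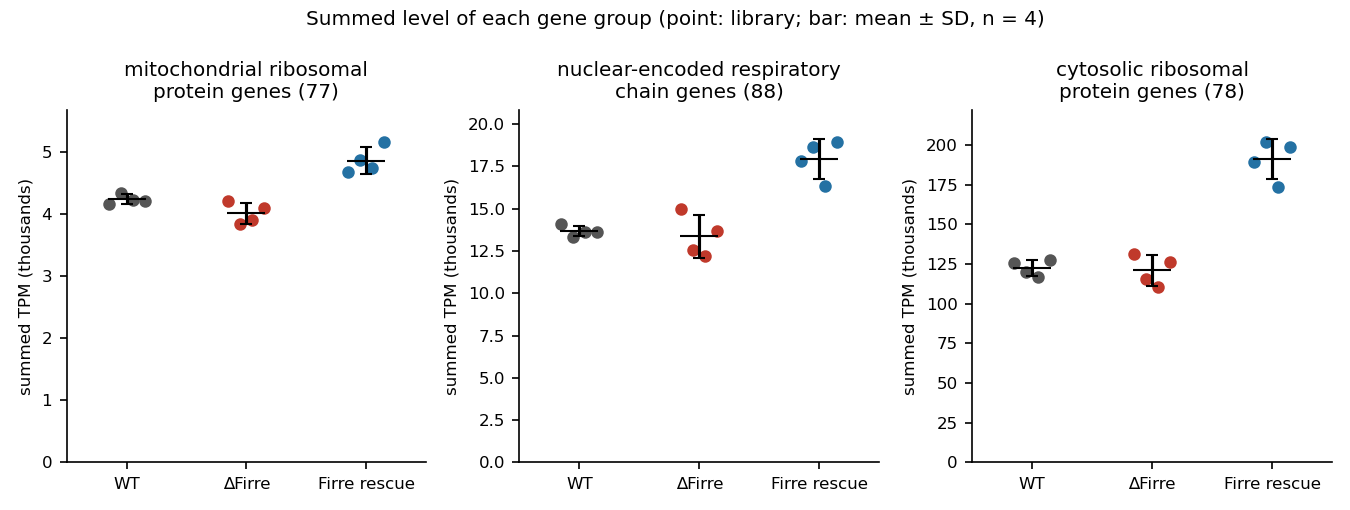
Summed TPM, divided by 1000, of the mitochondrial ribosomal protein genes, the nuclear-encoded respiratory chain genes and the cytosolic ribosomal protein genes, with 1 point per library and the mean and SD of each group of 4 on axes that start at 0. The Firre rescue libraries lie above the other 8 in each panel, with means of 4866 TPM for the members, 17927 TPM for respiratory chain genes and 190824 TPM for cytosolic ribosomal protein genes.

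The comparison lists gave more calls than the members. Of the cytosolic ribosomal protein genes, 70 of 78 were higher in Firre rescue than in ∆Firre and 0 lower, with a median of 0.59. Of the nuclear-encoded respiratory chain genes, 48 of 81 were higher and 1 lower, with a median of 0.46. Whether the members differ from these lists was not tested. Summed TPM of B-lineage markers moved with the group, at 835 to 1339.7 in Firre rescue, 282 to 373 in ∆Firre and 215 to 420.0 in WT, with 7 of 8 markers higher and 1 lower than in ∆Firre. Basophil and mast cell markers lay at 64.0 to 142, 2918 to 4291 and 1052 to 9045, with 6 of 6 lower, antibody-secreting cell markers at 299 to 519, 1607 to 3405 and 866 to 1622, with 2 of 6 higher and 4 lower, and proliferation markers at 2098 to 2511, 1655 to 2179 and 2026 to 2129, with 4 of 10 higher and 0 lower. Markers of type 2 innate lymphoid cells lay at 43.0 to 73.1, 90.02 to 116 and 75.4 to 114, with 4 of 5 tested lower, and 3 of the 8 listed were at 0 in all Firre rescue libraries, 2 in all ∆Firre and 1 in all WT libraries. The 36 mitochondrially encoded genes summed to 76929 to 131180, 103641 to 117967 and 95645 to 115686, with 3 higher and 5 lower than in ∆Firre. No listed marker of B-lineage, basophil and mast, antibody-secreting or proliferating cells was at 0 in all libraries of a group. Plasmacytoid dendritic cell markers lay at 529 to 709 in Firre rescue, 526 to 635 in ∆Firre and 567 to 743 in WT, with 2 of 6 higher and 2 lower than in ∆Firre. Neutrophil markers lay at 122 to 1423, 169 to 1550 and 269 to 1246 in the same order, with 0 of 6 higher and 1 lower. The part of these lists in the members' values was not tested.

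The members called higher were richer in G and C and shorter. Their median exon GC content was 55.3% and their median exon length 1279.5 bases, against 49.0% and 2080.5 bases in the other members. Over all genes tested, those called higher had a median GC content of 55.8% and a median length of 2317.5 bases, against 48.8% and 3397 bases in the others. Across the 76 members Spearman's rho between the difference and GC content was 0.43, and across all genes 0.45, as a description over genes that share the libraries. Of the 26 members with the highest GC content (52.4% to 60.3%), 13 were called, against 19.1% of all genes in the same range. The 25 members in the middle range gave 3 against 5.08% of all genes, and the 25 lowest gave 2 against 2.51%. Median differences in these ranges, from low to high GC, were 0.16, 0.04 and 0.43 in the members and −0.28, −0.14 and 0.13 in all genes. With each library corrected for GC content, 31 members were higher and 0 lower, among them 15 of the 18, while Mrpl4, Mrps24 and Mrpl38 were lost. The same correction called 13.7% of all genes higher.

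**Figure D5:**
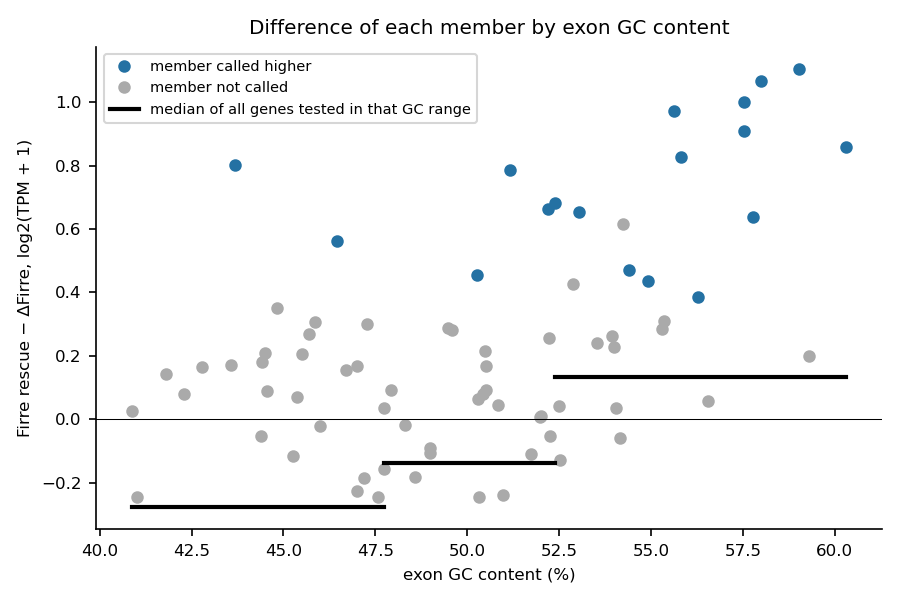
Difference between Firre rescue and ∆Firre CLPs in log2(TPM + 1) for each of the 76 tested members against its exon GC content in percent, with black lines for the median of all genes tested in the low, middle and high range of the members' GC content. Most called members (blue) lie above 52.4% GC, and the medians of all genes climb from −0.28 to 0.13 over the same range.

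Other genes of mitochondrial translation had calls in both directions between Firre rescue and ∆Firre, as all genes tested did (8.58% higher and 19.3% lower). Of 5 mitochondrial ribosome subunits with other names, 2 were higher and 0 lower: Gadd45gip1 by 0.80 ± 0.15 and Aurkaip1 by 0.37 ± 0.14. Of 13 translation factors, 0 were higher and 3 lower (23.1%, near the share of all genes), among them the elongation factor Guf1 by −0.57 ± 0.15 and the initiation factor Mtif2 by −0.56 ± 0.10. In the 23 genes for assembly and rRNA modification, 2 were higher and 0 lower, the 2 being the rRNA methyltransferase Mrm2 (0.74 ± 0.22) and the ribosome-binding factor Rbfa (0.47 ± 0.15).

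Of 19 mitochondrial aminoacyl-tRNA synthetases, 2 were higher (Vars2 by 0.91 ± 0.28 and Lars2 by 0.64 ± 0.20) and 3 lower (15.8%), with Mars2 at −0.62 ± 0.24 and Hars2 at −0.49 ± 0.12. Of 10 genes for mitochondrial transcription and RNA handling, 0 were higher and 1 lower, the ribonuclease Pnpt1 at −0.41 ± 0.14. The 16S rRNA of the mitochondrial large subunit, mt-Rnr2, was at 1214 to 1567 TPM in Firre rescue, 1694.2 to 2578 in ∆Firre and 1769 to 2734 in WT (−0.73 ± 0.16 against ∆Firre, limma adjusted p = 0.00966), in libraries selected for poly(A). The 12S rRNA of the small subunit, mt-Rnr1, was at 947 to 1363 TPM in Firre rescue, 1232 to 1699.5 in ∆Firre and 1013 to 1449.8 in WT, and was not called (−0.27 ± 0.15 against ∆Firre, limma adjusted p = 0.208). Among 9 regulators of such genes, Esrra was higher (0.65 ± 0.23), and Gabpa (−0.39 ± 0.09), a subunit of the ETS factor GABP, and Yy1 (−0.28 ± 0.11) were lower. Nrf1 differed by 0.35 ± 0.16 and was not called (limma adjusted p = 0.145).

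Of the 18 members called, 6 overlap another gene in the RefSeq table (Mrpl14, Mrpl2, Mrpl27, Mrpl57, Mrps18a and Mrps28). Of all 77 members 24 do, among them Mrpl18, Mrpl24, Mrpl44, Mrps18b, Mrps25 and Mrps27, which were not called. The strand setting of the counting is not given in the sources used here, so reads of these members and of their overlapping genes cannot be told apart. The other 12 called members have no such overlap.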

How the data were processed

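CLP libraries of 4 WT, 4 ∆Firre and 4 Firre rescue mice were used. According to the submitters' processing notes and the methods, the authors trimmed reads with cutadapt, mapped them to mm10 with TopHat2 2.1.1, counted them per gene with featureCounts, and deposited TPM (reads per gene length, scaled to 1 total per library). Strand and multi-mapping settings are not given in the sources used here. Genes with a mean of at least 1 TPM (14479) were set to log2(TPM + 1), a scale that understates changes of low genes, then analysed by limma 3.58.1 (R 4.3.3), with all 12 libraries in one fit without covariates. P-values were two-sided and adjusted over all genes by Benjamini-Hochberg, and genes were called at 0.1 or less. The p-values set each group difference against the spread between mice within groups, pooled over the 3 groups. In comparisons with Firre rescue, that difference holds transgenes, diet, depth and library number together. Whole reads were recovered from the TPM spacing (100.0% of values above 0, tolerance 0.001 reads) for depth and for limma-voom. These reads carry no molecular identifiers.

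Exon GC content was read from an earlier Gencode release matched on gene identifiers (90.4% of genes tested, all 77 members). Positions and sequences came from RefSeq GRCm38.p6, the build of mm10. Members and lists were chosen with earlier results of these data known. Named were, in each comparison, up to 6 called members per direction by size of change, members with an unadjusted p under 0.05 in ∆Firre against WT and no overlap, the 5 highest and 5 lowest members by mean TPM, members with textbook roles, and in other lists the 2 most changed genes in each direction. Other called or neighboring members were named after their values were seen. The fit and the read recovery were tested on simulated data. The GC correction was run on the real values with an added bias linear in GC content. It removes such a bias by construction, so this run checks the code alone. Alternatives covered pseudocount, filter, scaling, variance trend, threshold, blocks, single libraries, limma-voom, and GC content. Corrections for length, and the fit of genes with a GC value alone, were chosen after seeing the data.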

Additional observations from a re-analysis of the deposited data

Results flagged for a closer look

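In each group of 4 libraries, the level of each named member was searched for 1 library far from the other 3 (gap over range above Dixon's 95% critical value). This picked 4 of 102 sets, where chance gives about 5.1. Mrpl10 was at 6.73 on the log2(TPM + 1) scale (105 TPM) in WT replicate 8, against 6.12 to 6.19 in the other WT libraries. Mrpl11 was at 4.13 (16.5 TPM) in Firre rescue replicate 3, against 4.99 to 5.11 in the others of its group. Mrpl14 was at 6.94 (122 TPM) in Firre rescue replicate 4, against 6.43 to 6.52 in the others, and its call held without that library. Mrpl42 was at 8.31 (317 TPM) in Firre rescue replicate 2, against 7.96 to 8.01 in the others.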

How the results depend on the processing

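No member called in a comparison changed direction under an alternative run. The member median relative to all genes between ∆Firre and WT, -0.02, lay near 0 and was 0.0022 under quantile normalization. Against 18 members higher in Firre rescue than in ∆Firre, correction for exon GC content gave 31, for exon length 35 and for both 32. The share of all genes called higher rose with them, from 8.58% to 13.7%, 16.5% and 13.9%, and the genes called lower fell from 2801 to 759, 1317 and 857. Against 12 members higher than in WT, these gave 28, 27 and 25, quantile normalization and the median ratio 23 each, and TPM without abundant gene classes 19. Over all genes the share rose from 4.82% to 10.2%, 11.2%, 10.8%, 8.34%, 9.02% and 5.64% in that order. The causes were not tested. Leaving out single libraries gave 15 to 25 and 10 to 16 members higher. It gave 0 to 1 lower against ∆Firre (Mrpl22 without ∆Firre replicate 11, Mrpl24 without Firre rescue replicate 3) and 0 to 2 lower against WT (Mrpl47 and Mrps10 without Firre rescue replicate 1, Mrps9 without replicate 2, Mrpl24 without replicate 3). The member median relative to all genes ranged over the same fits from 0.28 to 0.43 against ∆Firre and from 0.21 to 0.34 against WT, and was 0.14 against WT without the filter on low values. At the same threshold, 13 of the 18 members were called in every setting, all but Mrpl4, Mrps24, Mrpl27, Mrpl38 and Mrps18a, and 9 of the 12 against WT, all but Mrpl2, Mrpl12 and Mrpl57. No member was called between ∆Firre and WT in any setting. Replicate numbers 8 and 11 occur in both WT and ∆Firre, and same-numbered libraries did not deviate together (r = -0.03 and -0.04). With the replicate number as a block 0 members were called, 8 had an unadjusted p under 0.05, and the relative median was -0.02. Depth and group cannot be told apart for the Firre rescue libraries. Mrpl53, which overlaps another gene, was listed too low to compare.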
